A study of Mus musculus with 9 samples.

Results

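Ky, Mlf1, Cyp1b1, Papln and Ptp4a3 are 5 of the 49585 gene symbols in a bulk RNA sequencing table of the mouse whole ventricle. They were picked because their levels separated TTg_HF from Ctrl_HF hearts, so the difference between these groups chose the genes and is described below without a test. The choice named genes and set no threshold. All 5 had enough counts to be tested, as did 12670 genes of the table.

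The table holds 3 groups of 3 libraries from male mice on a hybrid C57BL/6 and ICR background. TTg_HF hearts carried the genotype Tcf21iCre/R26 tdTomato/MGTH2A and came from animals that for 15 weeks ate a diet drawing 60% of its kilocalories from fat and drank water with 1 g/L of L-NAME, which blocks nitric oxide synthesis. This treatment models heart failure in which the ejection fraction is preserved. Ctrl_HF hearts carried Tcf21iCre/R26 tdTomato without MGTH2A and came from animals on the same diet and L-NAME. Ctrl hearts had that same genotype without MGTH2A and came from animals on normal chow. Animals of every group received tamoxifen, 2 mg per day for 5 days at week 5, and hearts were taken at week 15, perfused, with atria and valves removed. As background, MGTH2A is a transgene that encodes Mef2c, Gata4, Tbx5 and Hand2, factors that drive heart gene expression, and Tcf21iCre is a tamoxifen-inducible recombinase expressed from Tcf21, a gene of cardiac fibroblasts, which also switches on the tdTomato reporter. Whole-ventricle RNA mixes these cells with all others, and without a transgenic group on chow, the comparison of TTg_HF with Ctrl joins the effects of genotype and diet. The ages of the animals are not stated in the labels, and neither is whether each library came from a separate animal, so the spread behind each p-value may be technical.

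Total counts ran from 6743109 to 9364336 per library. The transgene factor Tbx5 stood at 103 to 189.8 CPM (counts scaled to an equal library total, with TMM factors) in TTg_HF, against 20.2 to 27.1 in Ctrl_HF and 26.8 to 32 in Ctrl, and the group labels were taken as given. On the first principal component, which held 31.2% of the variance, scores were 48.5 and 23.5 for Ctrl_HF replicates 2 and 3, 5.12 for Ctrl_HF replicate 1 and -23.5 to -2.33 for the other 6 libraries, so values with and without these libraries are given where they matter. Replicates of a group differed by more than counting noise in all 9 pairs (chi-square per degree of freedom 4.55 to 23.9 over at least 12127 genes). So none was taken as the same library sequenced again, which does not show that they came from separate animals. The summed level of 8 cardiomyocyte markers was 42591 to 56616 CPM over all libraries, which does not by itself tell ventricle from atrium. That of 4 atrial markers was 45.4 to 159 CPM. Most of it was Nppa, with group means of 51.5 to 98.8 CPM, while Myl7, Myl4 and Sln each averaged at most 8.48 CPM in any group.

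The 5 genes belong to different cell functions. Ky encodes the kyphoscoliosis peptidase, a transglutaminase-like muscle protein of the Z-disc that binds filamin C, and mice without it develop a degenerative myopathy. Mlf1 encodes myeloid leukemia factor 1, a shuttling protein first known from a leukaemia fusion and abundant in striated muscle. Cyp1b1 encodes a heme monooxygenase that oxidises estrogens, fatty acids and polycyclic compounds, and is a target of the aryl hydrocarbon receptor. Papln encodes papilin, a secreted matrix glycoprotein built like the ADAMTS proteases without their protease domain. Ptp4a3 encodes PRL-3, a prenylated phosphatase that binds the CNNM magnesium transport proteins.

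In the GENCODE vM21 annotation of GRCm38 the genes lie on 5 chromosomes and all are protein coding. Ky spans chr9:102505750-102546239 on the plus strand. Mlf1 spans chr3:67374097-67400003 on the plus strand. Cyp1b1 spans chr17:79701537-79715061 on the minus strand. Papln spans chr12:83763634-83792382 and Ptp4a3 chr15:73723145-73758766, both on the plus strand. Only Mlf1 and Ptp4a3 overlap another annotated gene, Gm17402 on the opposite strand and Gm22106 on the same strand, and both of these had 0 counts in all 9 libraries.

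Promoter sequences are shown for Ky, Mlf1 and Cyp1b1, the 3 genes that also passed the test between Ctrl_HF and Ctrl, since Ky and Mlf1 moved together and Cyp1b1 moved the other way. Each is 250 bases before to 50 after the start given by RefSeq (GRCm38.p6), read along the gene's own strand. The windows are chr9:102505888-102506187 (plus) for Ky, chr3:67373847-67374146 (plus) for Mlf1 and chr17:79715012-79715311 (minus) for Cyp1b1. For Ky the RefSeq start lies 388 bases downstream of the start of the GENCODE gene, so the Ky window lies inside that gene and does not cover the bases before it; for Mlf1 and Cyp1b1 the starts are the same. Capitals mark matches to the motifs searched.
Ky: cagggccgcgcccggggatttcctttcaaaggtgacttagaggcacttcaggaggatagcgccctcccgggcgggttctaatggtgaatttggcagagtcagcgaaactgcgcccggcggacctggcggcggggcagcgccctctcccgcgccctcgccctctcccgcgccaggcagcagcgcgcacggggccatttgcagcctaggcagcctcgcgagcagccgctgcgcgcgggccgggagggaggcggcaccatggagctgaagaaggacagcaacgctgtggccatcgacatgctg
Mlf1: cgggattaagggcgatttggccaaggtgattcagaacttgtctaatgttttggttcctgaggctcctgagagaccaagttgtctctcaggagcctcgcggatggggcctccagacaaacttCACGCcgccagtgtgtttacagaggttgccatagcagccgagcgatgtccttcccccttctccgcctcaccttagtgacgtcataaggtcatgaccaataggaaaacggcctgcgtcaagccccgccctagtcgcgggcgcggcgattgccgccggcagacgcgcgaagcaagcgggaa
Cyp1b1: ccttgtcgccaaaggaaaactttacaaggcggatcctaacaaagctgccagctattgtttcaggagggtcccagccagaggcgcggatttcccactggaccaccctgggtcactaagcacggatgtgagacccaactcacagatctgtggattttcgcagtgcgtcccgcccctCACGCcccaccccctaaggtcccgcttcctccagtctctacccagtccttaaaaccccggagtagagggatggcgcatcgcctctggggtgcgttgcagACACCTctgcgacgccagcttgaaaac
Searched on both strands were CTANNNNTAG for MEF2, AGATAA for GATA factors, AGGTGT for T-box factors, CATCTG for an E-box of the HAND type and GCGTG for the core of the xenobiotic response element bound by the aryl hydrocarbon receptor. The Ky window held none of these letters. The Mlf1 window held 1 match, the xenobiotic core read on the other strand as CACGC. Cyp1b1 held that core once and the T-box letters once, read as ACACCT. Of 32544 promoter windows of this length 32.6% held the xenobiotic core, 13.8% the T-box letters, 17.1% the E-box, 11.2% the GATA letters and 3.70% the MEF2 letters. The Papln window (chr12:83763384-83763683, plus) held no match, and Ptp4a3 had no entry in the promoter table. The Ky window had 69% G and C with 31 CpG pairs, Mlf1 58.3% with 24, Cyp1b1 58.3% with 16 and Papln 61% with 9, against a median of 53% and 7 over all windows.

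Muscle genes first, Ky stood at 19.9, 16.8 and 23.5 CPM in TTg_HF replicates 1 to 3, at 6.30, 5.70 and 6.02 in Ctrl_HF and at 38.9, 42.7 and 37.4 in Ctrl. The 3 groups did not overlap, and TTg_HF lay between the others. Means were 20.05 ± 3.35 in TTg_HF, 6.01 ± 0.298 in Ctrl_HF and 39.7 ± 2.75 CPM in Ctrl (SD, n = 3 each). The difference that chose the gene, TTg_HF against Ctrl_HF, was a log2 fold change of 1.73 (SE 0.15), or 3.32-fold, and 0.0868% of all genes passed an adjusted p of 0.05 in that comparison. The Ctrl_HF values rested on 39 to 52 counts, whose counting error of 14.8% exceeds their spread of 4.96%, so the SD of that group understates the error.

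Mlf1 was at 55.6, 71.7 and 83.1 CPM in TTg_HF replicates 1 to 3, against 33.8, 39.0 and 30.2 in Ctrl_HF and 106, 113 and 91.2 in Ctrl. These groups did not overlap either, and they kept the order of Ky, with Ctrl_HF lowest and Ctrl highest. The nearest approach was between the highest TTg_HF library, at 83.1, and the lowest Ctrl library, at 91.2. TTg_HF against Ctrl_HF gave a log2 fold change of 1.03 (SE 0.15). Of all genes 18.8% had groups that did not overlap in this comparison, and for 1.63% the TTg_HF libraries lay wholly between those of the other groups, as for Ky and Mlf1, which were chosen on part of that pattern.

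Cyp1b1 ran the other way. It was at 14.8, 16.2 and 11.8 CPM in TTg_HF, at 28.1, 31.0 and 26.4 in Ctrl_HF and at 10.01, 10.3 and 12.7 in Ctrl. Ctrl_HF stood above all other libraries, while TTg_HF and Ctrl overlapped. The log2 fold change of TTg_HF against Ctrl_HF was -0.99 (SE 0.15).

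Papln, the matrix gene, was at 36.2, 30.9 and 28.6 CPM in TTg_HF, at 16.3, 11.3 and 12.7 in Ctrl_HF and at 16.3, 19.2 and 22.4 in Ctrl. All TTg_HF libraries lay above the other 6, and the highest Ctrl_HF library met the lowest Ctrl library at 16.3. Means were 31.9 ± 3.90 in TTg_HF, 13.4 ± 2.59 in Ctrl_HF and 19.3 ± 3.04 CPM in Ctrl (SD, n = 3 each). TTg_HF against Ctrl_HF had a log2 fold change of 1.24 (SE 0.17), which was 0.97 (SE 0.21) with Ctrl_HF replicate 1 as the only library of its group.

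Ptp4a3, the phosphatase, was at 347, 352 and 298 CPM in TTg_HF, at 209.6, 210.1 and 211 in Ctrl_HF and at 228, 242 and 231 in Ctrl. TTg_HF again lay above the other 6 libraries, as it did for 1.93% of all genes, but Ptp4a3, like Papln, was chosen on part of that pattern. The 3 Ctrl_HF values spread by 0.284%, less than the 2.50% that counting alone gives at 1437 to 1820 counts. The log2 fold change of TTg_HF against Ctrl_HF was 0.66 (SE 0.08). By size of that change the 5 genes ranked from 92nd (Ky) to 939th (Ptp4a3) of 12670, so they were not the largest differences between the groups.

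**Figure D1:**
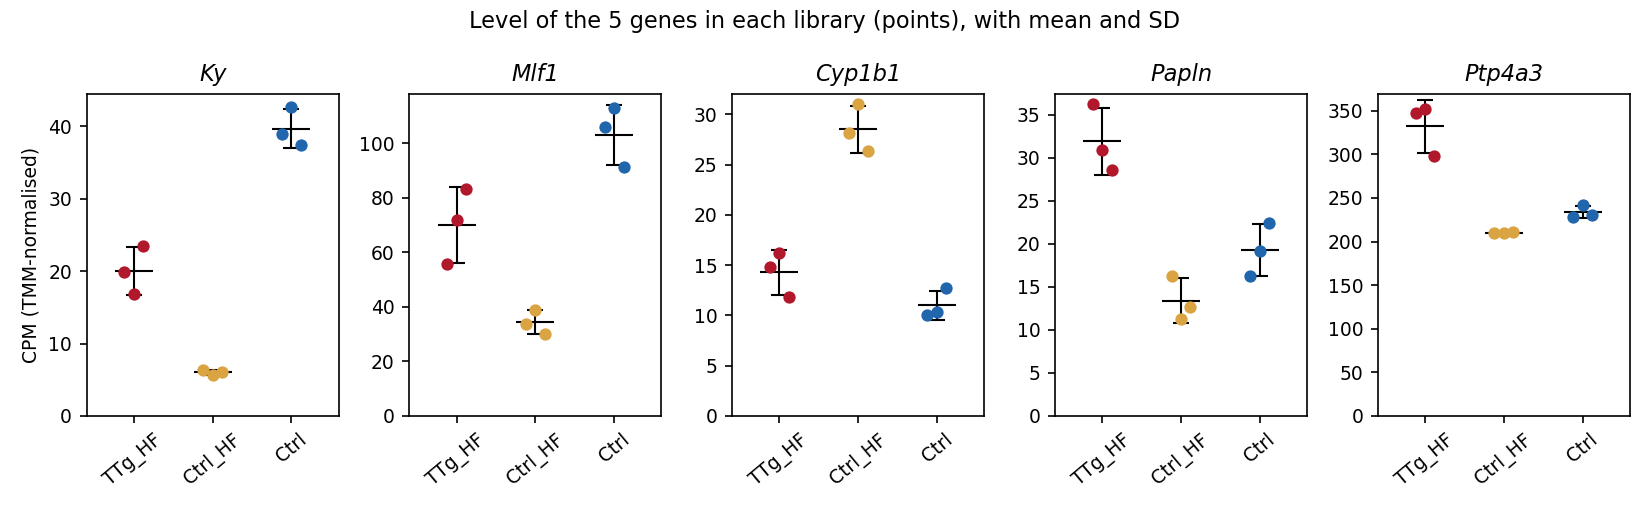
Level of each gene in CPM (TMM-normalised, linear axes from 0) in TTg_HF, Ctrl_HF and Ctrl; points are libraries, the bar is the mean and the whiskers the SD (n = 3). Ky and Mlf1 are lowest in Ctrl_HF and highest in Ctrl, Cyp1b1 is highest in Ctrl_HF, and Papln and Ptp4a3 are highest in TTg_HF.

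Levels of different genes were compared as CPM per kb of merged exon. That length joins all annotated exons, 9351 bases over 10 transcripts for Ptp4a3 and 1719 over 4 for Mlf1. Which transcripts were expressed is not known, so the order of genes depends on this length, and the SD does not cover it. By CPM alone Ptp4a3 averaged 332 and Mlf1 70.1 in TTg_HF. In TTg_HF the order was Mlf1 (40.8 ± 8.06), Ptp4a3 (35.6 ± 3.23), Papln (5.66 ± 0.692), Ky (3.41 ± 0.570) and Cyp1b1 (2.45 ± 0.383 CPM per kb, SD, n = 3). Mlf1 and Ptp4a3 did not differ beyond their spread there. In Ctrl_HF Ptp4a3 (22.5 ± 0.0639) and Mlf1 (19.99 ± 2.58) came first, then Cyp1b1 (4.88 ± 0.398), Papln (2.38 ± 0.459) and Ky (1.02 ± 0.0507 CPM per kb). Ctrl hearts had Mlf1 at 60.2 ± 6.46, Ptp4a3 at 25.0 ± 0.745, Ky at 6.75 ± 0.467, Papln at 3.42 ± 0.540 and Cyp1b1 at 1.88 ± 0.250 CPM per kb. Ky therefore stood above Papln and Cyp1b1 in Ctrl and below both in Ctrl_HF, while Cyp1b1 stood above both in Ctrl_HF and was last in the other groups.

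**Figure D2:**
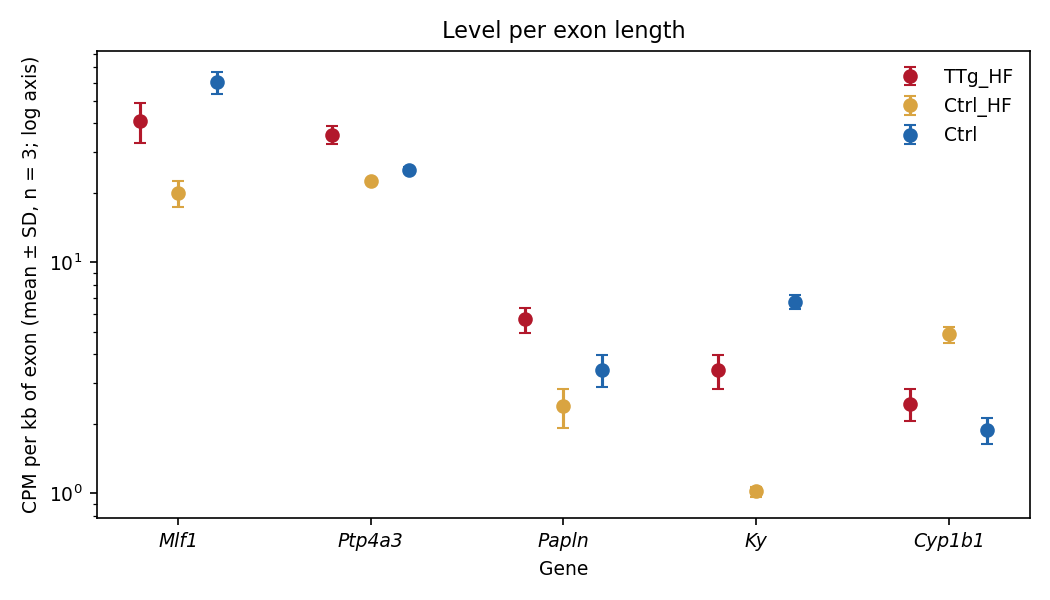
CPM per kb of merged exon (log axis) for the 5 genes in TTg_HF, Ctrl_HF and Ctrl; points are means and whiskers SD (n = 3). Mlf1 and Ptp4a3, at 19.99 to 60.2 CPM per kb, lie above the other 3 genes, at 1.02 to 6.75, in every group.

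The diet and L-NAME comparison, Ctrl_HF against Ctrl, was not the one that chose the genes, though it shares the Ctrl_HF libraries with it, so the choice itself favours a difference of the opposite sign here. Ky fell by 2.72 on the log2 scale (SE 0.15, adjusted p = 1.51e-05 by edgeR), a level 6.59-fold lower in Ctrl_HF. Mlf1 fell by 1.59 (SE 0.15, adjusted p = 0.00164 by edgeR), and Cyp1b1 rose by 1.37 (SE 0.15, adjusted p = 0.00342 by edgeR), 2.59-fold. Papln (log2 fold change -0.52, SE 0.17, adjusted p = 0.114) and Ptp4a3 (-0.15, SE 0.08, adjusted p = 0.306) did not pass in edgeR. So 3 of 5 genes passed, against 3.61% of all genes tested, of which 1.79% were higher and 1.82% lower. All 5 had groups that did not overlap in this comparison, with Papln alike to 3 digits where its groups met, as did 23.3% of all genes.

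Cardiomyocyte markers were mostly lower in Ctrl_HF than in Ctrl as well, with 1 of 8 above 0 (Actn2, log2 fold change 0.05). Their sum over 8 markers was 42591 to 46788 CPM in Ctrl_HF and 48499 to 56616 in Ctrl, with a median log2 fold change of -0.27 (44161 to 47348 CPM in TTg_HF). EdgeR called 0 of the 8, with 6 at an unadjusted p under 0.05 and 5 called by DESeq2. In TTg_HF against Ctrl_HF the median log2 fold change of these markers was 0.04. There 2 had an unadjusted p under 0.05, and 0 were called by edgeR or DESeq2. In bulk RNA fewer cells of a type and less RNA per cell cannot be told apart, and the part of these markers in the changes of Ky and Mlf1 was not tested.

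The calls on Ky, Mlf1 and Cyp1b1 held under all 17 alternatives, with highest adjusted p-values in edgeR of 0.00220, 0.0199 and 0.0248 over them. That includes the fit with Ctrl_HF replicate 1 as the only library of its group, although the number of genes called then fell to 161, against 458 with all libraries. Papln passed without Ctrl_HF replicate 1 (log2 fold change -0.68, adjusted p = 0.0335 by edgeR). Its adjusted p ran from 0.0335 to 0.642 over the alternatives.

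Comparing TTg_HF with Ctrl shows where each gene stood against chow hearts without the transgene, and shares the TTg_HF libraries with the choice of genes. Ky was lower in TTg_HF, at -0.99 on the log2 scale (SE 0.13, adjusted p = 0.00707 by edgeR). Ptp4a3 was higher in TTg_HF, at 0.51 on the log2 scale (SE 0.08, adjusted p = 0.0174 by edgeR). Mlf1 (-0.56, SE 0.15, adjusted p = 0.172), Cyp1b1 (0.38, SE 0.15, adjusted p = 0.465) and Papln (0.72, SE 0.16, adjusted p = 0.0990) did not pass in edgeR. So 2 of 5 genes passed, against 0.466% of all genes. The groups did not overlap for all but Cyp1b1, as for 18.7% of all genes. Unadjusted p-values by edgeR were 0.00295 for Mlf1, 0.0319 for Cyp1b1 and 0.000922 for Papln. Missing the adjusted threshold therefore does not show that their levels were equal.

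Ky held under all 16 alternatives of that comparison (adjusted p at most 0.0499 by edgeR). Ptp4a3 did not pass in edgeR without Ctrl replicates 1, 2 and 3 (adjusted p = 0.0540, 0.0829 and 0.0950) or without TTg_HF replicates 1 and 2 (0.0814 and 0.115). Papln passed without Ctrl_HF replicate 1 (adjusted p = 0.0413), and in 3 more fits given among the processing alternatives.

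**Figure D3:**
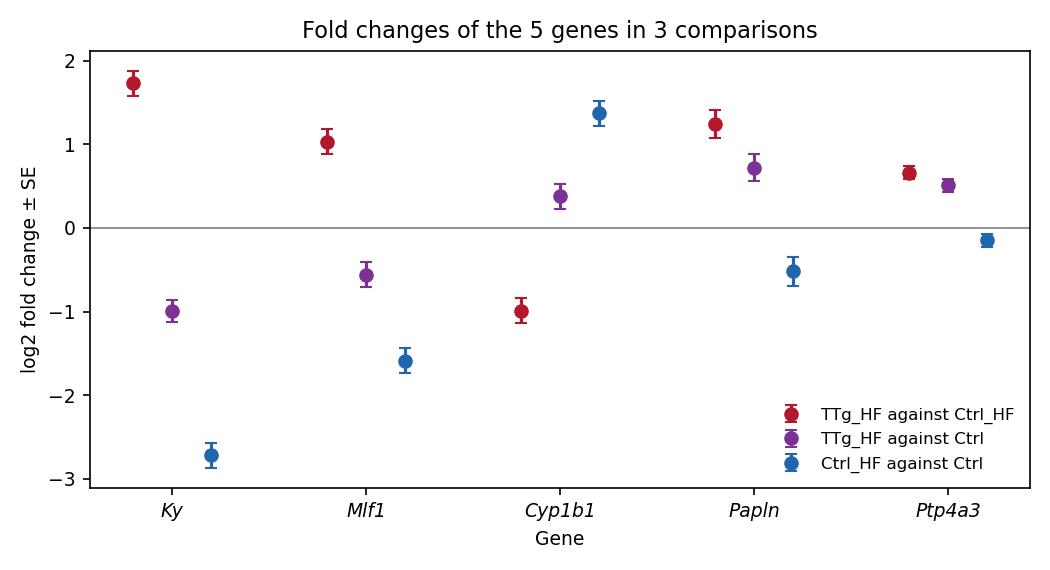
Log2 fold changes (± SE) of the 5 genes in TTg_HF against Ctrl_HF, TTg_HF against Ctrl and Ctrl_HF against Ctrl. The first comparison chose the genes and shares libraries with both others; Ky is at 1.73, -0.99 and -2.72, and Ptp4a3 at 0.66, 0.51 and -0.15.

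The likeness of 2 genes was taken as the root mean square difference of their log2 CPM over the 9 libraries, each centred on its own mean. The measure grows with a gene's own range, and from its own mean each gene lay 1.11 (Ky), 0.680 (Mlf1), 0.593 (Cyp1b1), 0.542 (Papln) and 0.288 (Ptp4a3) apart. Ky and Mlf1 differed by 0.485. Papln and Ptp4a3 differed by 0.298, and by 0.815 with either turned upside down, so their profiles were nearer upright than mirrored. The 0.298 is no less than the distance of Ptp4a3 from a flat line. Since their ranges are unlike, that value alone does not say how far they share a shape. Cyp1b1 was nearly the mirror image of Mlf1: turned upside down, its profile differed from that of Mlf1 by 0.212. Part of this likeness follows from the choice of genes that differ between the same groups.

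Other genes with the nearest profile were searched among 12024 genes of at least 1 CPM with a full gene name. Ky was nearest to Mylk4, a myosin light chain kinase gene, at 0.436, then Foxo6, a forkhead factor gene, at 0.449, and Mlf1. Mylk4 averaged 156 ± 37.8 in TTg_HF, 59.8 ± 13.7 in Ctrl_HF and 220.4 ± 58.4 CPM in Ctrl. Foxo6 averaged 1.65 ± 0.0372 CPM in TTg_HF, 0.669 ± 0.258 in Ctrl_HF and 2.76 ± 0.613 in Ctrl.

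Mlf1 was nearest to Lgi1, a secreted leucine-rich repeat protein gene, at 0.169, then to the orphan receptor gene Gpr22 at 0.192 and to Abhd18 at 0.218. Lgi1 averaged 4.12 ± 0.276 in TTg_HF, 2.30 ± 0.318 in Ctrl_HF and 6.32 ± 0.436 CPM in Ctrl. Cyp1b1 was nearest to Trim47 at 0.191, to the growth factor gene Tgfb2 at 0.222 and to Gpatch4 at 0.223. Tgfb2, which acts on fibroblasts and matrix, averaged 20.1 ± 3.37 in TTg_HF, 34.0 ± 4.17 in Ctrl_HF and 14.1 ± 3.13 CPM in Ctrl.

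Papln was nearest to the ubiquitin ligase gene Rnf152 at 0.204, to Trim14 at 0.211 and to Olfml1 at 0.230. Rnf152 averaged 12 ± 0.961 in TTg_HF, 5.82 ± 1.39 in Ctrl_HF and 8.26 ± 1.99 CPM in Ctrl. Ptp4a3 was nearest to the Ras exchange factor gene Rasgrf2 at 0.12, to the bicarbonate transporter gene Slc4a4 at 0.13 and to Cntln at 0.131. Slc4a4 averaged 92.6 ± 7.14 in TTg_HF, 68.5 ± 6.04 in Ctrl_HF and 71.9 ± 4.59 CPM in Ctrl (SD, n = 3 throughout).

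Genes related to the 5 by binding, family or pathway were taken from 5 lists with 63 genes, of which 51 could be tested. In TTg_HF against Ctrl_HF, edgeR called 0 of the 51, with 13 at an unadjusted p under 0.05 (14.3% of all genes were there) and 6 called by DESeq2. In Ctrl_HF against Ctrl 5 rose and 1 fell in edgeR, where 3.61% of all genes passed. There 14 of the 51 had an unadjusted p under 0.05, against 20.6% of all genes. All 6 calls on related genes were lost without Ctrl replicate 2, where 0 passed.

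Partners of Ky and the filamin C quality control genes had a median log2 fold change of -1.0 over 6 tested members in TTg_HF against Ctrl_HF, beside a median of -0.00 over all genes. None passed in edgeR, though all 6 were below 0 with an unadjusted p under 0.05, where 14.3% of all genes were. DESeq2 called 4. The list was drawn up with earlier results of these data known, so these counts only describe it. Flnc, which encodes filamin C, the actin crosslinker of the Z-disc, was at 1230.4, 1148 and 1065 CPM in TTg_HF and at 1612, 8277 and 5266 in Ctrl_HF, beside 1251, 1155 and 1509 in Ctrl. Its log2 fold change was -2.14 in TTg_HF against Ctrl_HF (SE 0.53, adjusted p = 0.172 by edgeR, 0.000809 by DESeq2), and Ctrl_HF replicates 2 and 3 carried the high values.

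Xirp2, an actin-binding Xin repeat gene, showed the same split, at 588, 603 and 535 CPM in TTg_HF and at 631, 2496 and 1769 in Ctrl_HF, against 535, 546 and 634 in Ctrl. Its log2 fold change in TTg_HF against Ctrl_HF was -1.50 (SE 0.44, adjusted p = 0.210 by edgeR, 0.0367 by DESeq2). Xirp1, its paralog, was at 30.9, 18.4 and 14.2 CPM in TTg_HF, 61.3, 108 and 47.6 in Ctrl_HF and 44.9, 20.4 and 31.1 in Ctrl (log2 fold change -1.78, SE 0.44, adjusted p = 0.161 in TTg_HF against Ctrl_HF by edgeR, 0.0124 by DESeq2). Ky itself held at 5.70 to 6.30 CPM in the same 3 Ctrl_HF libraries and did not follow that split. Without Ctrl_HF replicate 1, Flnc, Xirp2 and Hspb8, a small heat shock protein gene, passed in edgeR in TTg_HF against Ctrl_HF (adjusted p = 0.00146, 0.000205 and 0.0132). Ttn, also on this list, averaged 35984 ± 754 in TTg_HF, 39869 ± 2665 in Ctrl_HF and 40822 ± 2398 CPM in Ctrl. Its log2 fold changes were -0.15 in TTg_HF against Ctrl_HF (SE 0.06, adjusted p = 0.302 by edgeR) and -0.03 in Ctrl_HF against Ctrl. Igfn1 and Mybpc1, binding partners on the list too low to be tested, had at most 3 counts in any library.

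For Mlf1 0 of the 5 tested relatives passed in edgeR or DESeq2 in either comparison, with 0 at an unadjusted p under 0.05 in TTg_HF against Ctrl_HF and 1 in Ctrl_HF against Ctrl. Mlf2, its paralog, averaged 113 ± 4.33 in TTg_HF, 110 ± 2.27 in Ctrl_HF and 109.7 ± 3.85 CPM in Ctrl. Nrbp1, a pseudokinase that binds Mlf1, had log2 fold changes of 0.14 in TTg_HF against Ctrl_HF (adjusted p = 0.435 by edgeR) and -0.18 in Ctrl_HF against Ctrl (adjusted p = 0.225). Cops3 (-0.12 in TTg_HF against Ctrl_HF, -0.14 in Ctrl_HF against Ctrl) and the chaperone gene Dnajb6 (-0.18 and 0.10 in the same comparisons) did not pass in either comparison.

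In the aryl hydrocarbon receptor pathway 7 genes were tested, and edgeR called 0 of them in TTg_HF against Ctrl_HF (1 at an unadjusted p under 0.05, 0 by DESeq2). In Ctrl_HF against Ctrl 1 of the 7 passed, and it rose, where 3.61% of all genes passed. The receptor gene Ahr averaged 16.2 ± 2.52 in TTg_HF, 14.9 ± 1.20 in Ctrl_HF and 14.8 ± 3.18 CPM in Ctrl. Tiparp, another target of the receptor, stood at -0.82 on the log2 scale in TTg_HF against Ctrl_HF (SE 0.35, adjusted p = 0.349 by edgeR). It was at 28.2, 71.9 and 41.9 CPM in Ctrl_HF replicates 1 to 3, against 22 to 29.9 in TTg_HF. Nqo1 and Ahrr, also of this list, were at 0.17 and -0.06 in that comparison. In Ctrl_HF against Ctrl Tiparp was at 0.79, Nqo1 at 0.26 and Ahrr at -0.88, and none of these passed in edgeR. The classical targets Cyp1a1 and Cyp1a2 had at most 2 and 0 counts in any library.

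Of the ADAMTS and ADAMTS-like family 22 genes were tested beside Papln. In TTg_HF against Ctrl_HF edgeR called 0 of these and DESeq2 2, with 3 at an unadjusted p under 0.05. In Ctrl_HF against Ctrl 3 rose and 1 fell in edgeR, where 3.61% of all genes passed. Adamts2, the procollagen N-proteinase, was at 46.0, 42.7 and 39.1 CPM in TTg_HF, 36.0, 40.7 and 48.9 in Ctrl_HF and 29.3, 22.3 and 25.2 in Ctrl, and rose in Ctrl_HF by 0.71 (SE 0.14, adjusted p = 0.0221 by edgeR). Adamtsl5 rose by 0.52 (SE 0.10, adjusted p = 0.0234), and Adamts8, on 1 to 20 counts in these groups, by 2.26 (SE 0.50, adjusted p = 0.0356 by edgeR).

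Adamts7, a protease that cuts cartilage oligomeric matrix protein, fell by 0.94 (SE 0.18, adjusted p = 0.0215 by edgeR). It was at 24.8, 31.2 and 34.2 CPM in TTg_HF, 17.7, 13.9 and 23.9 in Ctrl_HF and 33.6, 37.5 and 35.8 in Ctrl, and its difference between TTg_HF and Ctrl_HF was 0.70 (SE 0.18, adjusted p = 0.138 by edgeR, 0.0314 by DESeq2). Adamts4, an aggrecan-cutting protease singled out after its values were seen, was widest apart in the family at -4.22 in TTg_HF against Ctrl_HF (SE 1.29, adjusted p = 0.218 by edgeR, 0.0254 by DESeq2), on 13, 9 and 3 counts in TTg_HF and 20, 319 and 78 in Ctrl_HF.

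Several ADAMTS calls were lost when single libraries were left out, with folds of the same sign. Without Ctrl replicate 3 or Ctrl_HF replicate 3 Adamts2, Adamts8 and Adamtsl5 lost their calls (adjusted p = 0.0795, 0.0883 and 0.0761 by edgeR, then 0.0778, 0.101 and 0.0850), as did Adamts7 without Ctrl replicate 3 (0.0724). Their log2 fold changes were then 0.70, 2.53 and 0.53 without Ctrl replicate 3, 0.58, 2.20 and 0.47 without Ctrl_HF replicate 3, and -0.94 for Adamts7. Adamtsl5 (0.0587) and Adamts8 (0.0998) also lost them without Ctrl_HF replicate 2, and Adamts8 without Ctrl replicate 1 (0.0631) and without TTg_HF replicates 1, 2 and 3 (0.0546, 0.0635 and 0.0617).

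Among Ptp4a paralogs, CNNM genes and magnesium transporters 11 genes were tested. In TTg_HF against Ctrl_HF 0 were called by edgeR or DESeq2, with 3 at an unadjusted p under 0.05, where 14.3% of all genes were. In Ctrl_HF against Ctrl 1 of the 11 passed in edgeR, against 3.61% of all genes. Ptp4a1 was at 96.0, 94.4 and 84.2 CPM in TTg_HF, at 109, 117 and 109 in Ctrl_HF and at 85.5, 69.9 and 77.5 in Ctrl. Unlike Ptp4a3 it was highest in Ctrl_HF, where it rose by 0.52 against Ctrl (SE 0.09, adjusted p = 0.0158 by edgeR, 0.0827 and 0.0644 without Ctrl replicates 2 and 3), and its log2 fold change in TTg_HF against Ctrl_HF was -0.29 (SE 0.09, adjusted p = 0.209). Ptp4a2 averaged 247 ± 16.1 in TTg_HF, 247 ± 26.8 in Ctrl_HF and 235 ± 4.47 CPM in Ctrl. The labels do not say how reads shared by these paralogs were counted, so their split is uncertain. Cnnm3, a binding partner of the phosphatases, was at 21.3 ± 0.624 in TTg_HF, 16.6 ± 2.11 in Ctrl_HF and 20.01 ± 2.16 CPM in Ctrl. Its log2 fold change in TTg_HF against Ctrl_HF was 0.36 (SE 0.13, adjusted p = 0.241 by edgeR). There Cnnm4 went the other way at -0.59 (SE 0.22, adjusted p = 0.249 by edgeR). Cnnm2 was at 0.27 (SE 0.19, adjusted p = 0.554) and Slc41a2 at -0.52 (SE 0.24, adjusted p = 0.362).

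**Figure D4:**
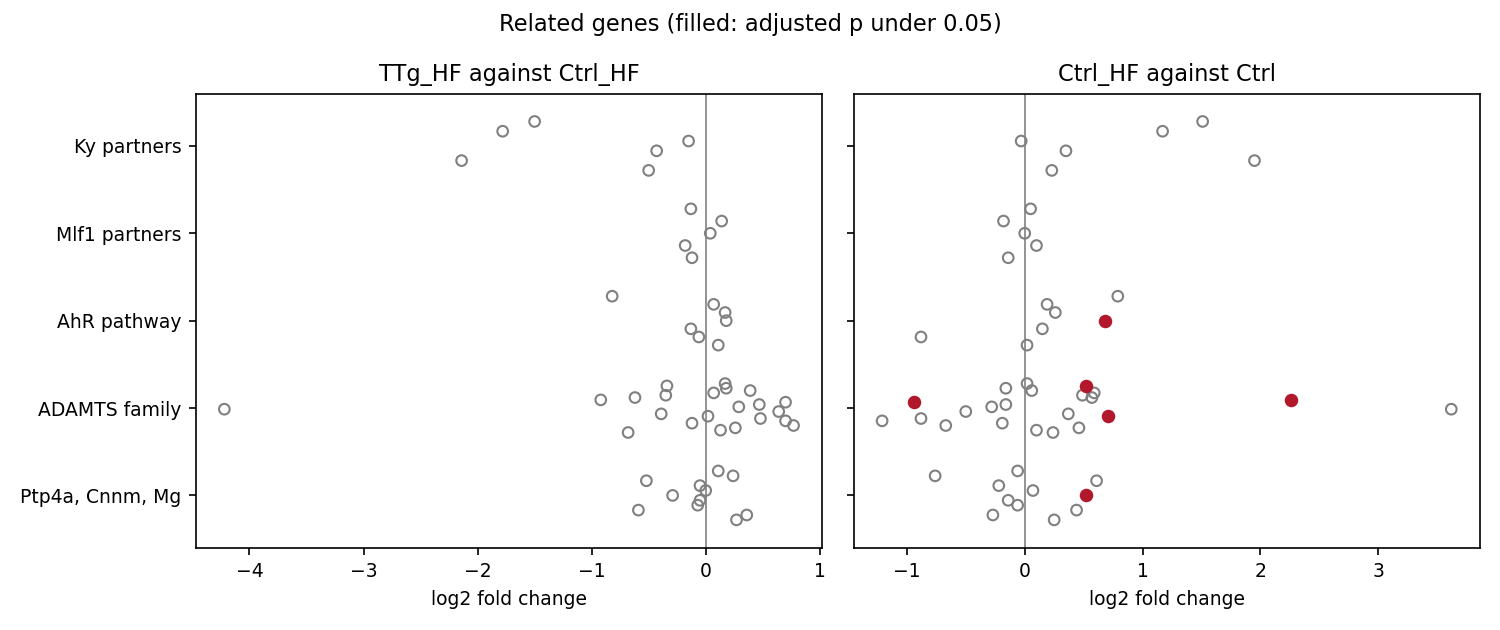
Log2 fold changes of the 51 tested related genes in 5 lists, for TTg_HF against Ctrl_HF (left) and Ctrl_HF against Ctrl (right); filled points passed an adjusted p of 0.05 in edgeR. None is filled on the left, and 6 are on the right.

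Genes next to the 5 on their chromosomes were looked at within 500 kb of each start. Of 31 tested neighbours 0 passed in edgeR in TTg_HF against Ctrl_HF, with 4 at an unadjusted p under 0.05, where 14.3% of all genes were, and 0 called by DESeq2. The 6 neighbours of Ky had log2 fold changes from -0.71 to 0.22 in that comparison, the 4 of Mlf1 from -0.19 to 0.56, the 6 of Cyp1b1 from -0.29 to 0.40, the 12 of Papln from -0.19 to 0.54 and the 3 of Ptp4a3 from -0.04 to 0.03. The nearest tested genes given here were Ephb1 (0.22) and Anapc13 (0.06) for Ky, Rsrc1 (-0.19) and Gfm1 (0.00) for Mlf1, Rmdn2 (0.14) and Atl2 (-0.02) for Cyp1b1 and, downstream of Papln, Numb (0.08). For Ptp4a3 they were Slc45a4 (-0.04) and, 949 kb away, Arc (-0.89, SE 0.75).

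In Ctrl_HF against Ctrl 4 of these 31 neighbours passed, against 3.61% of all genes. Ephb1, an ephrin receptor gene beside Ky, fell by 1.24 (adjusted p = 0.0459 by edgeR), averaging 12.9 ± 3.19 CPM in Ctrl_HF and 30.6 ± 10.5 in Ctrl, but it did not pass without any single library other than Ctrl replicate 2 (adjusted p 0.000850 to 0.162 over its 17 alternatives). Slco2a1, a prostaglandin transporter gene, rose by 1.46 (adjusted p = 0.0158 by edgeR, 0.0815 and 0.0695 without Ctrl replicates 2 and 3). The acyl-CoA thioesterase genes Acot2 and Acot1 near Papln rose by 1.21 and 2.22 (adjusted p = 0.00680 and 0.0156 by edgeR), and Acot1 had 0.0866 and 0.0721 without Ctrl replicates 2 and 3. These paralogs can share reads.

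**Figure D5:**
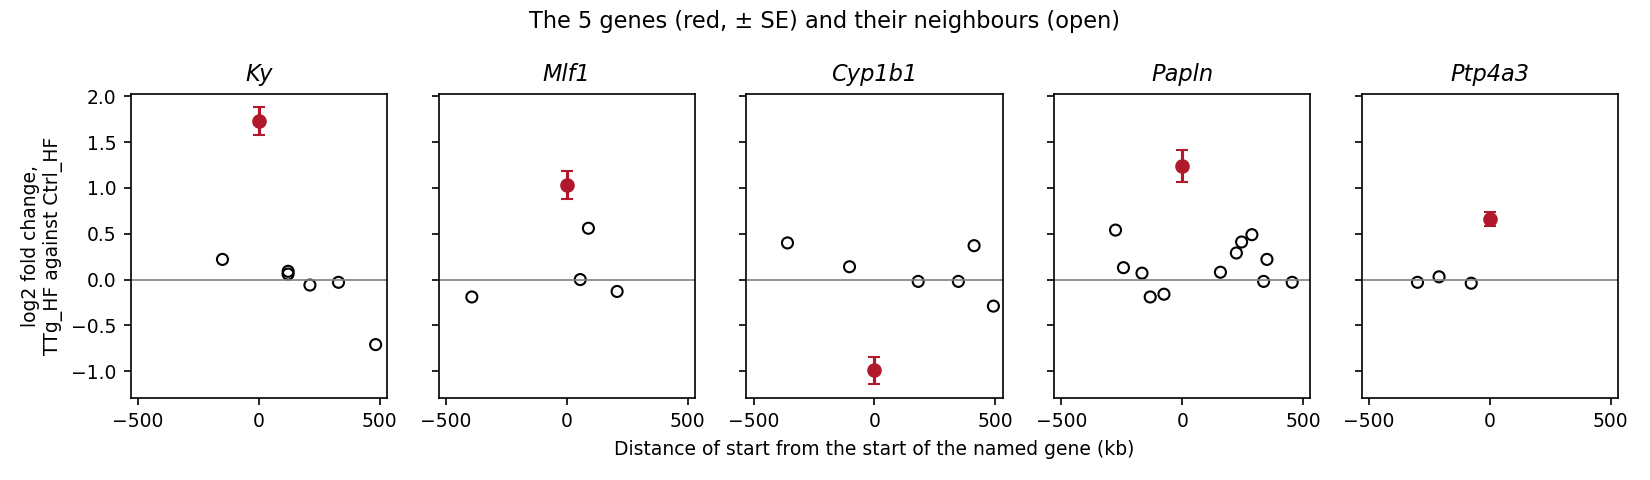
Log2 fold change of TTg_HF against Ctrl_HF for each of the 5 genes (red, ± SE) and for the tested genes whose starts lie within 500 kb (open), by distance in kb. Each of the 5 genes lies outside the range of its 3 to 12 neighbours, from which it was not chosen independently.

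Markers of other cell types were measured beside these results, and their part in them was not tested. The 8 fibroblast markers summed to 2006 to 2176 CPM in TTg_HF, 1676 to 2715 in Ctrl_HF and 1686 to 1768 in Ctrl. EdgeR called 0 of 8 in TTg_HF against Ctrl_HF (0 at an unadjusted p under 0.05, 0 by DESeq2) and 0 of 8 in Ctrl_HF against Ctrl (4 unadjusted, 2 by DESeq2). The 7 endothelial markers summed to 858 to 1058 CPM in TTg_HF, 932 to 989 in Ctrl_HF and 840.1 to 1005 in Ctrl, and edgeR called 0 of 7 in either comparison (0 and 2 unadjusted, 0 by DESeq2).

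The 5 smooth muscle markers summed to 209 to 235 CPM in TTg_HF, 186 to 252 in Ctrl_HF and 209.5 to 232 in Ctrl, with 1 of 5 lower in Ctrl_HF against Ctrl, Smtn (adjusted p = 0.0387 by edgeR). In TTg_HF against Ctrl_HF edgeR called 0 of these 5, with 3 at an unadjusted p under 0.05, among them Myh11 (log2 fold change 0.49) and Cnn1 (-1.05), and 1 called by DESeq2. The 5 pericyte markers summed to 1286 to 1397 CPM in TTg_HF, 1232 to 1303 in Ctrl_HF and 1441 to 1684 in Ctrl, with 1 of 5 lower in Ctrl_HF against Ctrl, Abcc9 (adjusted p = 0.00680 by edgeR). The 7 macrophage markers summed to 319 to 363 CPM in TTg_HF, 319 to 435 in Ctrl_HF and 245 to 299 in Ctrl, with 1 of 7 higher in Ctrl_HF against Ctrl, Mrc1 (adjusted p = 0.00680 by edgeR). In TTg_HF against Ctrl_HF 0 pericyte and 0 macrophage markers were called by edgeR or DESeq2, with 0 at an unadjusted p under 0.05.

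The 4 neutrophil markers summed to 2.23 to 3.66 CPM in TTg_HF, 7.94 to 10.5 in Ctrl_HF and 1.99 to 5.93 in Ctrl, with Ly6g at 0 in all libraries, so Ctrl_HF stood above the rest. Of the 3 tested edgeR called 0 in TTg_HF against Ctrl_HF (3 unadjusted, 2 by DESeq2) and 0 in Ctrl_HF against Ctrl (2 unadjusted, 0 by DESeq2). The 4 erythroid markers summed to 178 to 758 CPM in TTg_HF, 711 to 865 in Ctrl_HF and 391 to 596 in Ctrl, with 0 of 4 called by edgeR (1 and 0 unadjusted) or DESeq2.

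Since Ky and Mlf1 are also skeletal muscle genes, 8 skeletal muscle markers were summed. Acta1, an actin gene that cardiomyocytes also express, made up nearly all of the sum, at 312 to 473 CPM in TTg_HF, 685 to 1377 in Ctrl_HF and 132 to 401 in Ctrl. Its log2 fold change was -1.50 in TTg_HF against Ctrl_HF (SE 0.44, adjusted p = 0.210 by edgeR) and 1.98 in Ctrl_HF against Ctrl (SE 0.45, adjusted p = 0.0655 by edgeR), and DESeq2 called it in both. The other 7 summed to 0.235 to 0.880 CPM in TTg_HF, 0.292 to 0.695 in Ctrl_HF and 0.494 to 1.04 in Ctrl, with Myh4 at 0 in all libraries, so markers of skeletal muscle other than Acta1 were near 0. The 4 mesothelial markers summed to 12.1 to 22.9 CPM in TTg_HF, 23.2 to 23.8 in Ctrl_HF and 10.8 to 27.8 in Ctrl. Markers of lymphocytes and adipocytes were too low to be tested, with sums up to 3.83 and 3.12 CPM in any library.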

How the data were processed

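Ribosomal RNA-depleted, directional libraries of ventricular total RNA were made, per the labels' protocols. The authors deposited 1 table with 3 columns per library: whole-number counts per gene symbol, a normalized signal (each count times 1 factor per library) and its log2 value with a pseudocount of 1. The build was mm10, as the submitters' processing notes state. The sources used here name no aligner, counter, strand setting or annotation. The counts were used for all results.

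Of 49585 rows, 29540 had no count and 26 carried date-like names. edgeR 4.0.16 in R 4.3.3 (quasi-likelihood, robust, TMM, minimum count 10 and minimum total 15) was fitted to all 9 libraries by group over 12670 genes, which held at least 99.9% of the counts. P-values were adjusted by Benjamini-Hochberg over all of these, with a threshold of 0.05. DESeq2 1.42.0, other scalings and filters and fits without single libraries were alternatives. Standard errors were derived from each F statistic. At these depths 1 count was worth 0.105 to 0.147 CPM, and counting errors cover counting only.

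The genes and the related lists were chosen with earlier results of these data known. The rule for further names took, from each list, every gene called and the 2 of lowest p per comparison, the 3 most similar profiles and the nearest neighbours. Hspb8, Adamts4, Mlf2, Ptp4a2, Cnnm2, Cnnm4, Ahr, Ahrr, Nqo1, the Cyp1a genes, Ttn, Igfn1, Mybpc1 and neighbours beyond the nearest were named after their values were seen. The single values of 2 further genes under this rule are left out.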

Additional observations from a re-analysis of the deposited data

How the results depend on the processing

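The 5 genes gave 250 values under alternative settings. All 250 kept their direction, 239 also kept their side of the threshold or their size, and 11 did not. They include 17 values per gene from TTg_HF against Ctrl_HF, where the choice of genes largely fixed the direction beforehand. The other 2 comparisons share libraries with that one. In TTg_HF against Ctrl_HF, Papln was at 0.97 on the log2 scale without both Ctrl_HF replicates 2 and 3, an alternative chosen after seeing the data, which leaves 1 library assumed to vary like the other groups. In Ctrl_HF against Ctrl, Papln ran from -0.68 (adjusted p = 0.0335 by edgeR, without Ctrl_HF replicate 1) to -0.40 when single libraries were left out, and was -0.25 (SE 0.21, adjusted p = 0.642 by edgeR) without both Ctrl_HF replicates 2 and 3. In TTg_HF against Ctrl, Papln kept 0.72 and passed with no filter on low counts (adjusted p = 0.0283), with only those 2 groups (0.0480), with DESeq2 (0.0163) and without Ctrl_HF replicate 1 (0.0413), within 0.62 to 0.84 when single libraries were left out, while Ptp4a3 ran from 0.47 to 0.58 when single libraries were left out and did not pass in 5 of those fits.

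Counts of called genes moved more. TTg_HF against Ctrl_HF had 11, but 109 with no filter, 0 with only these groups, 339 with DESeq2, 27 without both Ctrl_HF replicates 2 and 3 and 2 to 665 when single libraries were left out. For Ctrl_HF against Ctrl the 458 became 126, 841, 161 and 85 to 1122 with only these groups, with DESeq2, without both replicates and without single libraries. For TTg_HF against Ctrl the 59 became 118 with no filter, 117 with only these groups, 182 with DESeq2 and 24 to 114 without single libraries. Related genes called numbered 6 with DESeq2 and 0 to 4 without single libraries in TTg_HF against Ctrl_HF, where edgeR called 0, and 1 with only the 2 groups and 0 to 10 without single libraries in Ctrl_HF against Ctrl, where it called 6. The cause of these shifts was not tested.

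Without both Ctrl_HF replicates 2 and 3, the calls in Ctrl_HF against Ctrl on Adamts2 (adjusted p = 0.201 by edgeR), Adamtsl5 (0.285), Adamts8 (0.366), Ptp4a1 (0.111) and Slco2a1 (0.159) were lost. Over all genes, libraries with the same replicate number did not deviate together (correlations -0.164 to 0.197 in 9 pairs). The main fit used no pairing. Such correlations cannot show whether the numbers pair the samples in a way that touches only some genes. A replicate block gave 12, 415 and 52 called genes in the 3 comparisons. It changed no call on the 5 genes, for example Ky at -2.73 in Ctrl_HF against Ctrl. Under it Adamts8 (adjusted p = 0.0605 by edgeR) and Ephb1 (0.0951) lost their calls and Slc41a3 gained one (0.0135). Low counts limit the precision of Ky in Ctrl_HF, at 39 to 52 counts, and of Adamts8, at 10 to 20 counts in Ctrl_HF and 1 to 5 in Ctrl.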
